A study of Mus musculus with 18 samples.

Results

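The 10 genes of glutathione transfer and glutathione synthesis described here were followed in the livers of old and young mice. They are the glutathione transferases Gstp1, Gsta1, Gsta2, Gsta3, Gsta4, Gstm1, Gstm2 and Gstm3, the synthesis enzyme subunit Gclc and the quinone reductase Nqo1. They were found by symbol, 10 of 10, among 18946 genes of the deposited table. The genes had been proposed with earlier results of the same livers known, and were in part selected on their Old and Young levels, so their differences between the ages are given as descriptions with no test. The libraries came from liver RNA of male C57BL/6J mice, an inbred laboratory strain, 10 Old and 8 Young. Old mice were 19.76 months old and Young mice 6.18 months old per the characteristics in the labels, whose other fields give slightly different round ages. All 18 mice had gone through a hyperinsulinemic-euglycemic clamp, an insulin infusion with blood glucose held level, so neither age has a liver without insulin infusion. RNA was extracted with the AllPrep kit in 5 Old and 3 Young mice and with the RNeasy kit in 5 Old and 5 Young mice. Each library is 1 mouse.

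Glutathione is a small thiol that liver cells make at high concentration. The heavier, catalytic subunit of glutamate-cysteine ligase, Gclc, joins glutamate to cysteine in the rate-limiting step, and glutathione synthetase adds glycine. Cytosolic glutathione transferases, grouped into the alpha, mu and pi classes by sequence, couple the thiol to electrophiles such as drug metabolites and lipid peroxidation products. Nqo1 reduces quinones with NADH or NADPH. The factor NRF2, held in check by KEAP1, switches on many of these genes under oxidative or electrophilic stress through antioxidant response elements, and the nuclear receptors CAR and PXR and the AH receptor act on some of them.

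Values are TPM, transcript counts per gene length brought to the same total in each library, further scaled between libraries by trimmed log ratios. They can be compared between genes. Whole reads recovered from the table came to 106948396 ± 11475262 per library in Old mice (SD, n = 10) and 106638287 ± 14397482 in Young mice (SD, n = 8). In a limma fit with age and kit as terms, 13895 genes were tested. Old replicate 14 stood apart: it was the highest of 18 libraries for 18.7% of tested genes, against 1.63% to 12.9% for each other library, and the lowest for 24.3%. Hepatocyte markers summed to 115900 to 175866 scaled TPM in Old and to 106312 to 149395 in Young libraries, and none of the 11 listed was at 0 in all libraries.

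Gstp1, the pi class enzyme, was the only one of the 10 genes whose Old and Young values did not overlap. It ranged from 595 to 1506 scaled TPM in Old livers, with a median of 908, and from 1669 to 3510.0 scaled TPM in Young livers, with a median of 2402. All 10 Old livers lay below all 8 Young livers. The means were 944 ± 266 scaled TPM in Old (SD, n = 10) and 2394 ± 577 in Young (SD, n = 8), a log2 fold change of -1.33 ± 0.17 (SE). No overlap in this direction was seen for 0.202% of all tested genes, and in the other direction for 0.216%. Between 21012 and 125734 reads per library stood behind Gstp1. In bulk tissue, fewer cells that express a gene and less RNA per cell cannot be told apart.

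Gstp1 lies on chromosome 19 at 4035411-4037912 (RefSeq, GRCm38.p6), beside its paralogs Gstp2 at 4040288-4042221 and Gstp3 at 4057470-4059605. The first 60 coding bases of the 3 genes are shown because reads of near-identical copies can be split between them, and capitals mark the bases that differ from Gstp1.
Gstp1: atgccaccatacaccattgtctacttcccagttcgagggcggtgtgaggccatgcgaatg
Gstp2: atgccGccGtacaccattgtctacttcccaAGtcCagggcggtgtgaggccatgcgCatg
Gstp3: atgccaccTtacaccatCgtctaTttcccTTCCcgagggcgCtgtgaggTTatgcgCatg
These stretches differ from Gstp1 at 6 positions in Gstp2 and at 11 in Gstp3. Over the whole reading frame Gstp1 was 98.1% identical to Gstp2 and 72.8% to Gstp3. Of all 50-base windows of the Gstp1 transcript 62.3% also occur in Gstp2, and the pseudogene Gstp-ps on chromosome 1 shares windows as well, so the division of reads among these rows is uncertain. Gstp2 was far lower than Gstp1, at 20.6 ± 22.2 scaled TPM in Old (SD, n = 10) and 8.97 ± 3.28 in Young (SD, n = 8), with a log2 fold of 0.71 ± 0.44 (SE, adjusted p = 0.342 by limma). Its direction differed by kit. With AllPrep, Gstp2 had 2.08 to 9.52 scaled TPM in Old and 5.88 to 14.2 in Young livers, with a lower mean in Old. With RNeasy it had 16.0 to 74.9 scaled TPM in Old and 4.54 to 12.4 in Young livers, higher in Old without overlap. Gstp3 had 16.0 ± 6.52 scaled TPM in Old and 9.80 ± 1.59 in Young, with a log2 fold of 0.58 ± 0.17 (SE, adjusted p = 0.0552 by limma). Summed over Gstp1, Gstp2, Gstp3 and Gstp-ps, the level was 618 to 1541 scaled TPM in Old and 1693 to 3532 in Young livers. The summed values of the ages did not overlap either.

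**Figure D1:**
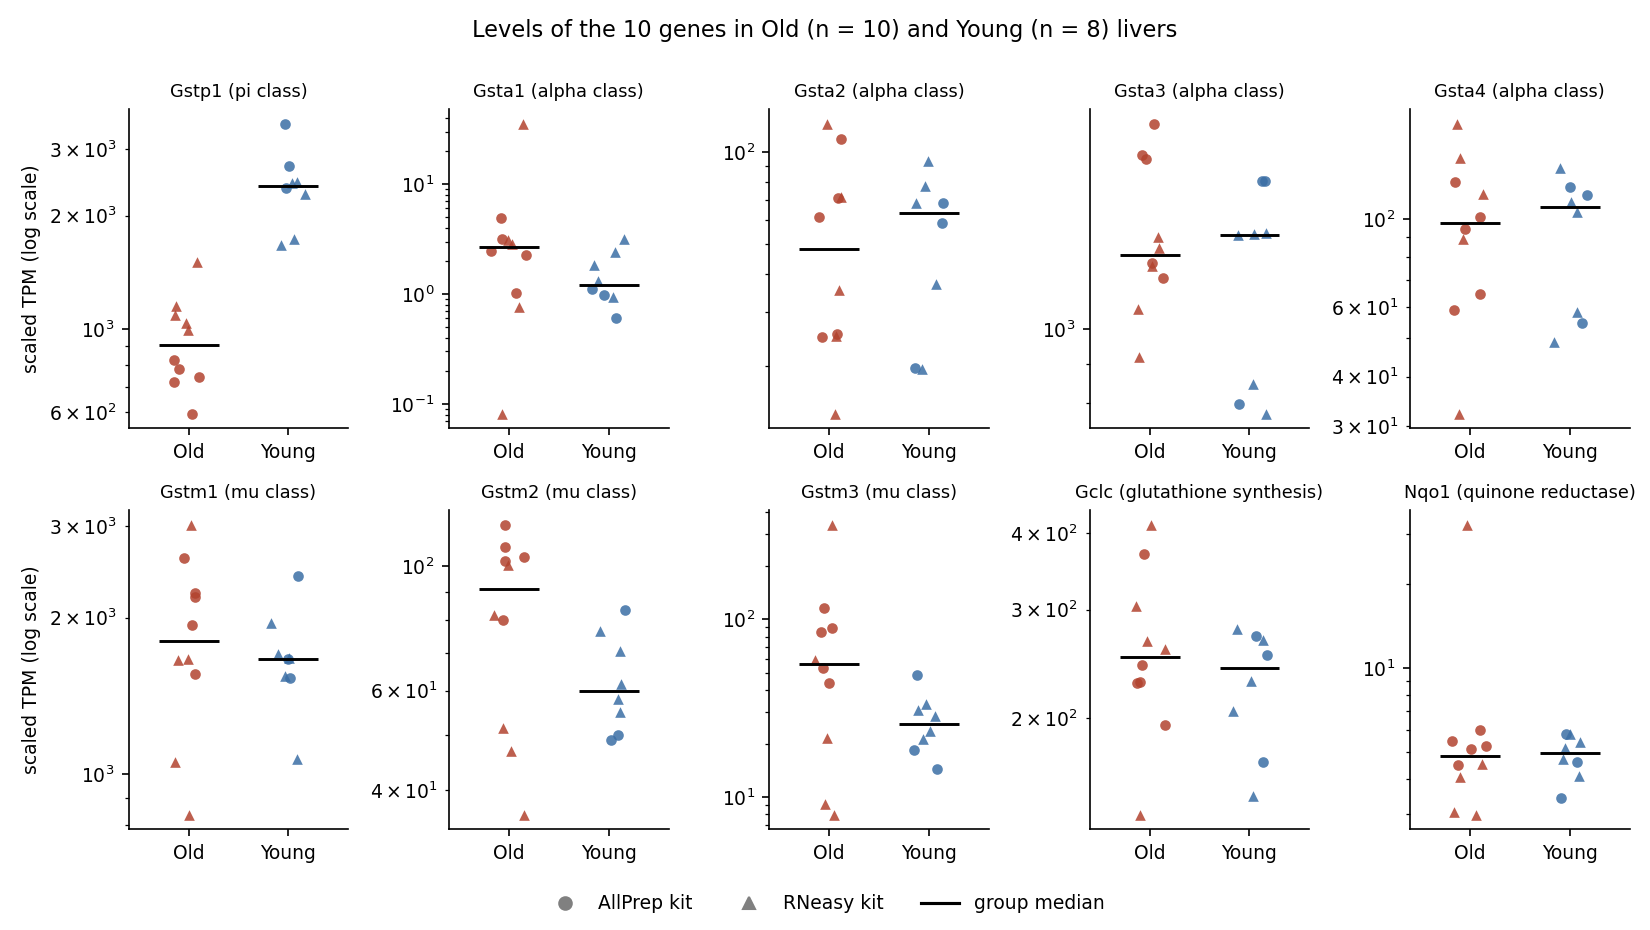
Scaled TPM (log axis) of the 10 genes in each Old (left, n = 10) and Young (right, n = 8) liver, with circles for AllPrep and triangles for RNeasy libraries and a bar at the group median. Gstp1 separates the ages, from 595 to 1506 in Old and from 1669 to 3510.0 in Young, and 1 Old RNeasy library stands far above the rest for Gsta1, Gstm3 and Nqo1.

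The Gstp1 difference was larger in AllPrep than in RNeasy libraries, but the test of that contrast did not pass after adjustment. With AllPrep, Old livers had 595 to 827 and Young livers 2366 to 3510.0 scaled TPM, a log2 fold of -1.95 ± 0.16 (SE). With RNeasy, Old livers had 990.0 to 1506 and Young livers 1669 to 2461 scaled TPM, a log2 fold of -0.87 ± 0.16 (SE). The ages did not overlap within either kit. The age by kit interaction was -1.08 ± 0.24 on the log2 scale (SE, adjusted p = 0.738 by limma and unadjusted p = 0.000298), and 0 of 13895 genes (0.0%) passed it, with 587 at an unadjusted p under 0.05. Without Old replicate 14 it was -1.13 ± 0.23 (SE, adjusted p = 0.223 by limma), and 3 genes, 0.0216% of those tested and none of the 10, passed. Old mice of the AllPrep set weighed 39.5 to 55.0 g at the clamp (the label gives no unit, taken as g) and those of the RNeasy set 35.1 to 45.5 g, so kit and weight partly go together and their parts in this difference cannot be told apart.

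The window of 250 bases before to 50 after the Gstp1 start, from RefSeq (GRCm38.p6, minus strand, chr19:4037863-4038162), is shown because Gstp1 has the clearest difference; capitals mark TGAGTCA, the only match to TGANTCA, the letters of an AP-1 element.
Gstp1: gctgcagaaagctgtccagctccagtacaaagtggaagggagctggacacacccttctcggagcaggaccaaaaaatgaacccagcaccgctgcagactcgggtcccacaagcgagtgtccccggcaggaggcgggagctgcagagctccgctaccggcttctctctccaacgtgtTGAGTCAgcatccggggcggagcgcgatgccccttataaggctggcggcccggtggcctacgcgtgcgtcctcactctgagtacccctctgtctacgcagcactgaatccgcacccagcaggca
That match begins at position -74 from the start, and TGANTCA fits it on both strands. TGANTCA, a search added after the sequences had been seen, occurred in 7.81% of 32851 promoter windows of this length. The core of the AH receptor element, GCGTG, occurred once with both strands searched, at -13, and it was found in 32.4% of all windows. Neither the exact letters TGACNNNGC, the core of the antioxidant response element, nor the STAT letters TTCNNNGAA occurred in this window on either strand. The marked TGAGTCA with the gc after it fits TGACNNNGC except for a G in place of the C. Looser forms of that core were not searched for, so such an element in this window is not excluded.

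Genes that are higher in male than in female mouse liver moved beside Gstp1. Of 20 tested male-biased genes 0 rose and 7 fell in Old livers by limma, at a median log2 fold of -1.06, against 0.00 over all tested genes, of which 2.47% fell. Of 14 female-biased genes 7 rose and 0 fell, with a median of 1.15, and 2.44% of all tested genes rose. Without Old replicate 14 the medians were -0.78 and 0.95, with 10 lower and 8 higher. Earlier results of these livers had already shown the male-biased genes lower, and the part of such genes in the Gstp1 difference was not tested.

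The alpha class was led by Gsta3, which detoxifies aflatoxin epoxide in mice. It ranged from 921 to 1850.4 scaled TPM in Old livers, with a median of 1248, and from 776 to 1559 in Young livers, with a median of 1327. Its log2 fold was 0.15 ± 0.16 (SE). Only 3 Old livers exceeded every Young liver, 3 of the 5 AllPrep ones, and the ages overlapped over most of their range. Gsta3 shared no 50-base window with another transcript.

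Gsta4 conjugates 4-hydroxynonenal, a product of lipid peroxidation. Levels lay between 32.2 and 174 scaled TPM in Old livers, with a median of 97.7, and between 48.8 and 134 in Young livers, with a median of 107. Its log2 fold was 0.06 ± 0.30 (SE). The lowest value (Old replicate 6) and the highest (Old replicate 16) were both from Old mice, and every Young value lay between them.

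Gsta2 had 14.0 to 124 scaled TPM in Old livers, with a median of 48.5, and 19.6 to 93.6 in Young livers, with a median of 63.5. The log2 fold was -0.10 ± 0.44 (SE). The levels of single mice spanned 8.89-fold, and the ages overlapped.

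Gsta1 was low in nearly all livers. It had 0.0814 to 35.5 scaled TPM in Old livers, with a median of 2.65, and 0.609 to 3.18 in Young livers, with a median of 1.21. The highest value belonged to Old replicate 14, and the other 9 Old livers reached at most 4.93. With all libraries the log2 fold was 0.74 ± 0.55 (SE), and without Old replicate 14 it was 0.29. Within AllPrep libraries it was 1.12 ± 0.35, and within RNeasy libraries 0.45 ± 0.90, or -0.42 ± 0.52 without Old replicate 14, where the direction turned (SE). In Old replicate 6 the value rested on 3 reads, the count used as a floor here, so its level is poorly set. The ages overlapped with and without Old replicate 14.

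The starts of the reading frames of Gsta1, its copy Gm3776 and Gsta2, which lie near each other on chromosome 9, are given because many reads fit more than 1 of these genes. Capitals mark the base that differs from Gsta1.
Gsta1: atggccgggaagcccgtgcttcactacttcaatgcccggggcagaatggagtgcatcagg
Gm3776: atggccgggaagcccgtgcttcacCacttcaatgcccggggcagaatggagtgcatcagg
Gsta2: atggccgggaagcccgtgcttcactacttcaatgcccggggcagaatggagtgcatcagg
Gm3776 has 1 difference in these 60 bases and Gsta2 has 0. The reading frame of Gsta1 was 99.7% identical to that of Gm3776 and 97.6% to that of Gsta2, and 89.7% of its 50-base windows occur elsewhere, as do 64.2% of those of Gsta2. Summed over Gsta1, Gsta2 and Gm3776 the level was 64.4 ± 38.4 scaled TPM in Old (SD, n = 10) and 57.8 ± 28.2 in Young (SD, n = 8), and the ages overlapped.

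Gstm1, the main mu class enzyme of mouse liver, was the most abundant of the 10 genes in Old livers. It ranged from 836 to 3021 scaled TPM in Old, with a median of 1800.2, and from 1070 to 2404 in Young, with a median of 1668. Its log2 fold was 0.04 ± 0.20 (SE). Old livers held both the 2 lowest and the 2 highest values, and the Young livers lay between them.

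Gstm2 and Gstm3 were spread more widely among Old than among Young mice. Gstm2 had 36.1 to 118 scaled TPM in Old livers, with a median of 91.0, and 49.1 to 83.5 in Young livers, with a median of 59.8. Its log2 fold was 0.27 ± 0.20 (SE). Of the Old livers 5 lay above all Young livers and 2 of the RNeasy set lay below all of them.

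For Gstm3 the Old livers ran from 7.97 to 341 scaled TPM, with a median of 56.1, and the Young livers from 14.3 to 48.6, with a median of 25.9. The log2 fold was 0.83 ± 0.56 (SE) with all libraries and 0.41 without Old replicate 14, the highest. Of 10 Old livers 6 lay above every Young liver and 2 below every Young liver. Within AllPrep libraries the log2 fold was 1.62, with Old at 43.9 to 116 and Young at 14.3 to 48.6 scaled TPM. Within RNeasy libraries it was 0.24, or -0.61 without Old replicate 14, so that its direction hung on that library there. The reading frame of Gstm3 was 85.0% identical to that of Gstm2, and 28.8% of its 50-base windows occur in other transcripts, most often in Gm8834.

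Gclc had 139 to 413 scaled TPM in Old livers, with a median of 251, and 150 to 279 in Young livers, with a median of 242. The log2 fold was 0.19 ± 0.18 (SE). Old livers exceeded every Young liver in 3 cases and fell below all of them in 1, and the ages overlapped. The partner of Gclc, the modifier subunit Gclm, had 188 ± 22.6 scaled TPM in Old (SD, n = 10) and 194 ± 17.2 in Young (SD, n = 8), with a log2 fold of -0.08 ± 0.06 (SE, adjusted p = 0.47 by limma). Glutathione synthetase, Gss, had 31.4 ± 2.15 scaled TPM in Old and 33.1 ± 2.61 in Young, with a log2 fold of -0.08 ± 0.05 (SE, adjusted p = 0.391 by limma).

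Nqo1 was low in these livers, at 2.99 to 32.5 scaled TPM in Old, with a median of 4.84, and at 3.43 to 5.82 in Young, with a median of 4.97. The log2 fold was 0.19 ± 0.32 (SE) with all libraries and -0.14 without Old replicate 14. Within AllPrep libraries it was 0.20 ± 0.16, and within RNeasy libraries 0.18 ± 0.54 (SE). In RNeasy libraries without Old replicate 14 the direction turned, to -0.42 ± 0.14 (SE). Old replicate 14 alone exceeded 6.01, the next highest value, and the remaining Old livers overlapped with the Young ones.

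**Figure D2:**
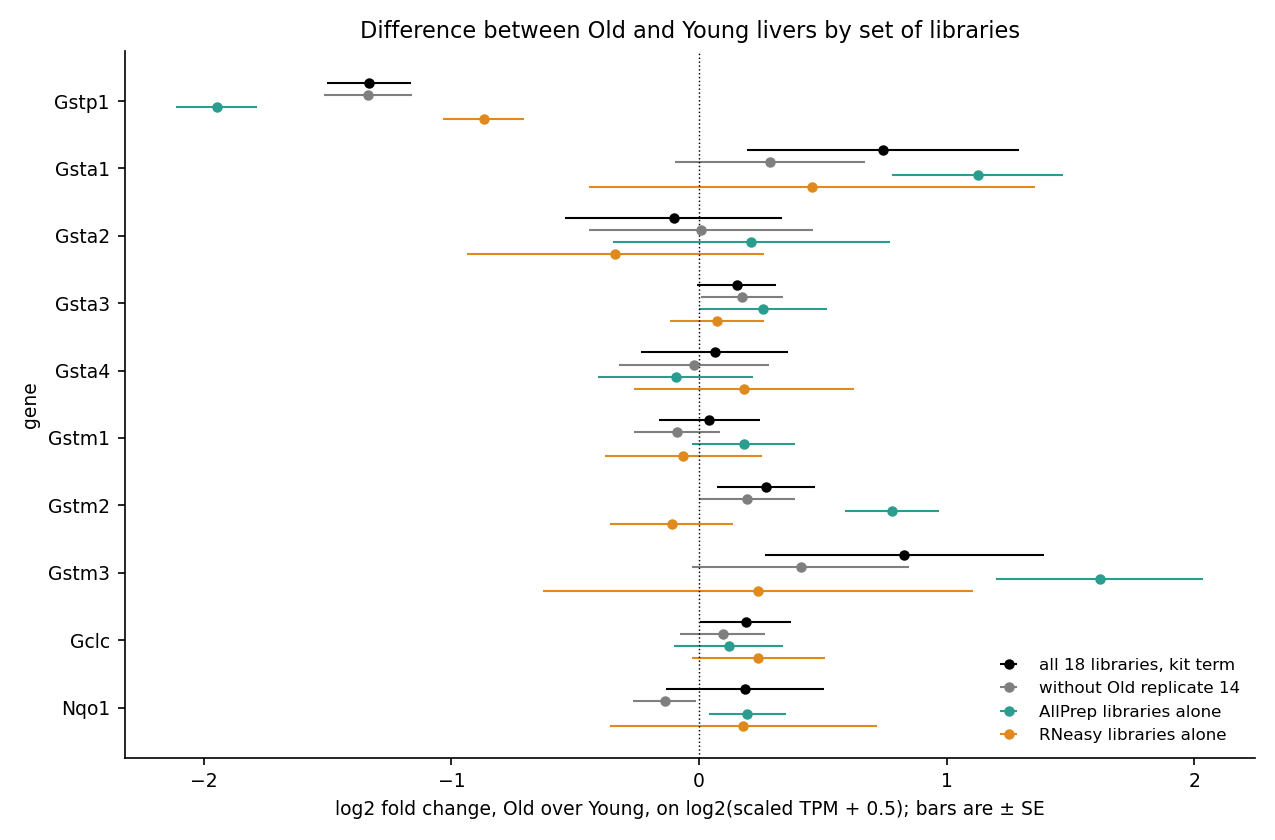
Log2 fold change, Old over Young, of the 10 genes on log2(scaled TPM + 0.5), with bars for the SE, in all 18 libraries, without Old replicate 14, in AllPrep libraries alone and in RNeasy libraries alone. Gstp1 lies below 0 in each, between -1.95 and -0.87, whereas Gsta2, Gsta4, Gstm1, Gstm2 and Nqo1 change side between sets of libraries.

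Of the 10 genes 1, Gstp1, passed the threshold of the all-gene fit as lower in Old and 0 as higher, where 2.47% of tested genes were lower and 2.44% higher; as the choice of genes used this contrast, nothing is read from the count. Without Old replicate 14 the same 1 gene was called, where 3.67% of tested genes were higher, 3.35% lower and 7.02% either. In AllPrep libraries alone 1.1% of genes were called and in RNeasy libraries alone 0.101%, with Gstp1 past the threshold in the AllPrep set and 0 of the 10 in the RNeasy set. Their median log2 fold was 0.17. As a sum, the 8 transferases reached 4483 ± 892 scaled TPM in Old (SD, n = 10) and 5518 ± 1084 in Young (SD, n = 8). Gstp1 made up 22.1% ± 8.33 of that sum in Old and 43.4% ± 5.79 in Young (SD), with ranges of 12.2% to 35.8% and of 35.6% to 52.2% that just overlapped. Gstm1 held 40.7% ± 7.92 of it in Old and 30.9% ± 4.78 in Young (SD). For Gsta3 the share was 30.2% ± 4.95 in Old and 21.4% ± 2.88 in Young (SD). Shares add up to a whole, so a lower share of 1 gene raises the others. The alpha class sum was 1498 ± 342 scaled TPM in Old and 1341 ± 387 in Young, and the mu class sum 2041 ± 769 in Old and 1783 ± 390.1 in Young (SD, n = 10 and 8).

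Over 7 lists of other glutathione genes and of their regulators, 120 genes were tested, of which 8 rose and 8 fell in Old livers in the limma fit. That is 13.3% of the lists, beside 4.91% of all tested genes, with the lists chosen with earlier results known. Among 19 other glutathione transferases 2 rose and 0 fell, and the median log2 fold was 0.09. Of these, 3 rose and 1 fell without Old replicate 14. Gstm7 had 47.7 ± 8.58 scaled TPM in Old (SD, n = 10) and 36.8 ± 5.39 in Young (SD, n = 8), a log2 fold of 0.32 ± 0.08 (SE, adjusted p = 0.0291 by limma). Gstm5 had 16.6 ± 3.27 scaled TPM in Old and 11.7 ± 2.55 in Young, a log2 fold of 0.46 ± 0.12 (SE, adjusted p = 0.0316 by limma). Both are mu class genes beside Gstm1 on chromosome 3, their values overlapped between the ages, and they lost the call in 8 and 10 of 29 alternatives. The theta class gene Gstt1 had a log2 fold of 0.36 ± 0.15 (SE, adjusted p = 0.168 by limma), and the microsomal Mgst1 one of -0.43 ± 0.15 (SE, adjusted p = 0.0943 by limma).

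Of 18 genes that supply or make glutathione and of 13 that break it down or export it, 0 rose and 0 fell, with median log2 folds of -0.08 and -0.02. In the breakdown list 2 genes rose without Old replicate 14. Among 15 peroxidases, reductases and glyoxalases 1 rose and 2 fell. Gpx3, the secreted glutathione peroxidase, reached 5.39 to 15.2 scaled TPM in Old livers and 3.39 to 6.89 in Young livers, a log2 fold of 0.88 ± 0.17 (SE, adjusted p = 0.00944 by limma). Glutathione reductase, Gsr, which regenerates the reduced thiol with NADPH, fell to 79.4 ± 4.69 scaled TPM in Old (SD, n = 10), against 93.9 ± 6.59 in Young (SD, n = 8; log2 fold -0.24 ± 0.05 SE, adjusted p = 0.0141 by limma). Glutaredoxin, Glrx, fell to 45.1 ± 4.88 scaled TPM in Old, against 57.1 ± 7.92 in Young (log2 fold -0.36 ± 0.07 SE, adjusted p = 0.0118 by limma). Gpx1, the main cytosolic peroxidase, had a log2 fold of -0.45 ± 0.19 (SE, adjusted p = 0.168 by limma).

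RNA of Nfe2l2, the gene that encodes NRF2, was higher in Old livers, while most NRF2 target genes were not higher. The level of the NRF2 protein is not given by these data. Nfe2l2 had 45.0 to 73.2 scaled TPM in Old livers, with a median of 55.7, and 31.3 to 49.0 in Young livers, with a median of 38.1. The log2 fold was 0.55 ± 0.09 (SE, adjusted p = 0.00375 by limma), and it lost the call in 1 of 29 alternatives, the AllPrep libraries alone. Its relative Nfe2l1 rose by 0.36 ± 0.08 on the log2 scale (SE, adjusted p = 0.0197 by limma), and Keap1, the adaptor that sends NRF2 to degradation, had a log2 fold of 0.02 ± 0.05 (SE, adjusted p = 0.87 by limma). Of 10 NRF2 regulators 2 rose and 0 fell.

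Of 27 other NRF2 target genes 1 rose and 5 fell, and the median log2 fold was -0.16. Ugt2b35, a glucuronosyltransferase, fell to 103 to 155 scaled TPM in Old livers, against 172 to 288 in Young livers, without overlap (log2 fold -0.68 ± 0.10 SE, adjusted p = 0.0028 by limma). Htatip2, an oxidoreductase, had a log2 fold of -0.47 ± 0.09 (SE, adjusted p = 0.0101 by limma), and Gsr is counted here as well. Ugdh, which makes UDP-glucuronate (-0.30 ± 0.08 SE, adjusted p = 0.0458 by limma), and the epoxide hydrolase Ephx1 (-0.41 ± 0.11 SE, adjusted p = 0.0472 by limma) passed narrowly and lost the call in 19 and 23 of 29 alternatives. The carboxylesterase Ces1g rose by 0.57 ± 0.16 on the log2 scale (SE, adjusted p = 0.0445 by limma) and lost the call in 16 of 29.

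Among 22 factors and target genes of CAR, PXR and the AH receptor 2 rose and 2 fell. Cyp2b9, a female-biased cytochrome P450, had 1.11 to 258 scaled TPM in Old livers, with a median of 27.8, and 0.0324 to 0.909 in Young livers, with a median of 0.172. The ages did not overlap (log2 fold 4.72 ± 0.85 SE, adjusted p = 0.00589 by limma; the call was lost with limma-voom and in RNeasy libraries alone, with or without Old replicate 14). Estrogen sulfotransferase, Sult1e1, rose by 0.92 ± 0.25 on the log2 scale (SE, adjusted p = 0.0434 by limma), a call lost in 18 of 29 alternatives. Alas1, the first enzyme of heme synthesis, fell to 64.7 to 168 scaled TPM in Old livers, against 121 to 394 in Young livers (log2 fold -0.93 ± 0.21 SE, adjusted p = 0.0197 by limma). P450 oxidoreductase, Por, fell by 0.65 on the log2 scale (± 0.15 SE, adjusted p = 0.0239 by limma), a call lost in either kit alone and without Young replicate 10.

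Old replicate 14 carried a pattern of its own in these genes. It was the highest of 18 libraries for 5 of the 10 and the lowest for 0, beside 18.7% and 24.3% of all tested genes. Gsta1 reached 35.5 scaled TPM there, 19.2 times the median of the other 17 libraries. Gstm3 reached 341 scaled TPM, 11.1 times that median, and Nqo1 reached 32.5 scaled TPM, 6.85 times. Gstm1 at 3021 and Gclc at 413 scaled TPM exceeded the highest of the others by 1.16 and 1.12 times. Gstp1 at 990.0, Gsta2 at 25.0, Gsta3 at 1061, Gsta4 at 142 and Gstm2 at 100.2 scaled TPM lay within the range of the others, so the 4 alpha class genes did not move as a block.

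Among 27 tested NRF2 target genes this library was the highest for 10 and the lowest for 5. Carbonyl reductase Cbr3 had 113 scaled TPM in Old replicate 14, against at most 3.31 in the other 17, and Cbr1 had 597 against at most 210.2. The pentose phosphate enzymes G6pdx, Pgd, Taldo1 and Tkt were all at their highest there, with Pgd at 92.2 scaled TPM against at most 35.4. Slc7a11, the cystine importer that feeds glutathione synthesis, had 6.92 scaled TPM against at most 0.155, and was too low elsewhere to be tested. The list did not move as a whole: Gclm, Prdx1, Txn1, Me1 and Entpd5 were at their lowest there, and Hmox1 at 37.5 scaled TPM lay inside the range of 19.4 to 60.1 of the others. Nfe2l2 had 50.6 scaled TPM, against 31.3 to 73.2 in the others, while the small MAF factor Maff had 14.2 against at most 3.67. Of 18 genes of glutathione supply 10 were at their lowest and 1 at its highest in this liver.

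Genes outside the pathway set the same liver apart. All 6 tested cell cycle markers were at their highest there, with a summed level of 42.2 scaled TPM over 8 listed markers, against at most 17.2 in the other 17 libraries. Of 8 tested cholangiocyte markers 5 were at their highest, with a summed level of 306 scaled TPM, of which Tspan8 made 116, against at most 145 elsewhere, while Krt19 at 0.607 and Epcam at 0.339 scaled TPM lay inside the range of the others. That list summed to 86.7 to 306 scaled TPM over Old and to 82.3 to 134 over Young libraries, and no marker of either list was at 0 in all libraries. Of 18 pericentral hepatocyte genes 15 were at their lowest in Old replicate 14, and of 20 male-biased genes 13, beside 24.3% of all tested genes. Of 16 periportal hepatocyte genes 8 were at their lowest there too, and 5 at their highest. Female-biased genes summed to 4288 scaled TPM there, of which Cyp2a4 made 3715, against at most 484 in the other 17 libraries. Endothelial markers were at their highest for 5 of 10 (summed level 299.8 against at most 293). Hepatocyte markers summed to 175866 against at most 153669, but of the 11 tested 4 were at their highest and 5 at their lowest there. The part of these genes in the levels of Gsta1, Gstm3 and Nqo1 there was not tested.

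**Figure D3:**
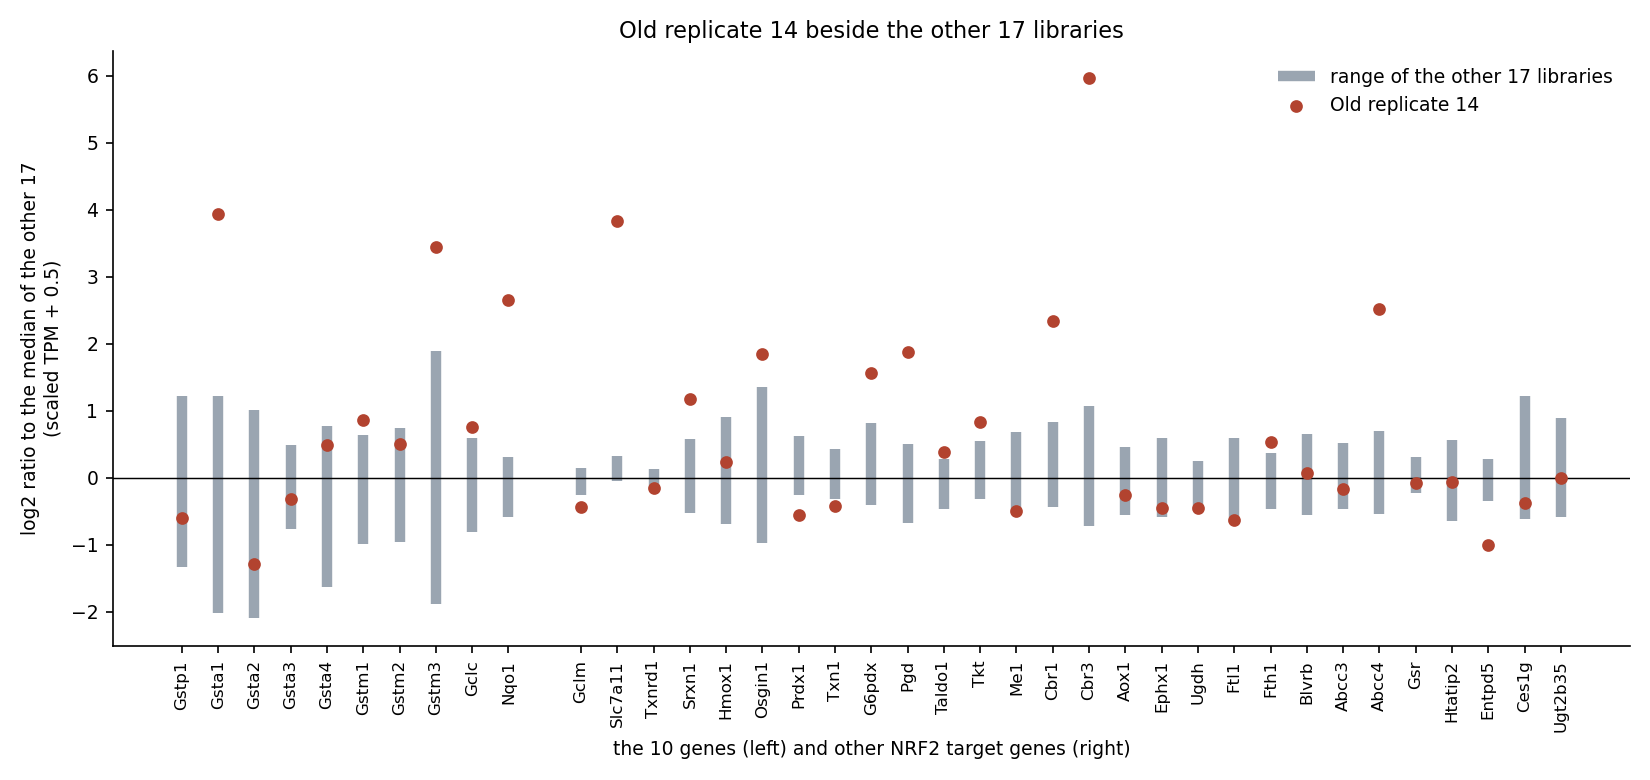
Log2 ratio of scaled TPM + 0.5 to the median of the other 17 libraries, for the 10 genes (left) and the 28 other listed NRF2 target genes (right), with points for Old replicate 14 and grey bars for the range of the other 17 libraries. Gsta1, Gstm3, Nqo1, Slc7a11, Cbr1, Cbr3 and Abcc4 lie more than 2 log2 units above the median of the others in that library, and Gclm, Prdx1, Txn1, Me1 and Entpd5 lie below the range.

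Several of the 10 genes varied together from mouse to mouse. After removing the age and kit means, Gsta2, Gsta3, Gsta4 and Gclc went up and down together, with Pearson r of 0.66 to 0.88 over their 6 pairs in 18 libraries, and of 0.80 to 0.94 without Old replicate 14. Spearman's rho was 0.67 to 0.83, and 0.79 to 0.89 without that library. Gsta1, Gstm1, Gstm3 and Nqo1 were also alike, with r of 0.73 to 0.91 and rho of 0.49 to 0.76 over 6 pairs. Without Old replicate 14 their r was 0.59 to 0.88 and their rho 0.39 to 0.72, so part of that likeness came from 1 liver. The 16 pairs between these sets had r of -0.06 to 0.73, and of 0.23 to 0.76 without Old replicate 14, so the sets are not distinct. Gstm2 went with its neighbour Gstm3 (r = 0.83 with all libraries, 0.85 without Old replicate 14) and ran against Gstp1 (r = -0.61 and -0.65). All pairs share the libraries, their depth and their scaling, and the sets were drawn after seeing the values. Gsta1 and Gsta2 may share reads, and so may Gstm1 with Gstm3, inside a set, and with Gstm2.

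**Figure D4:**
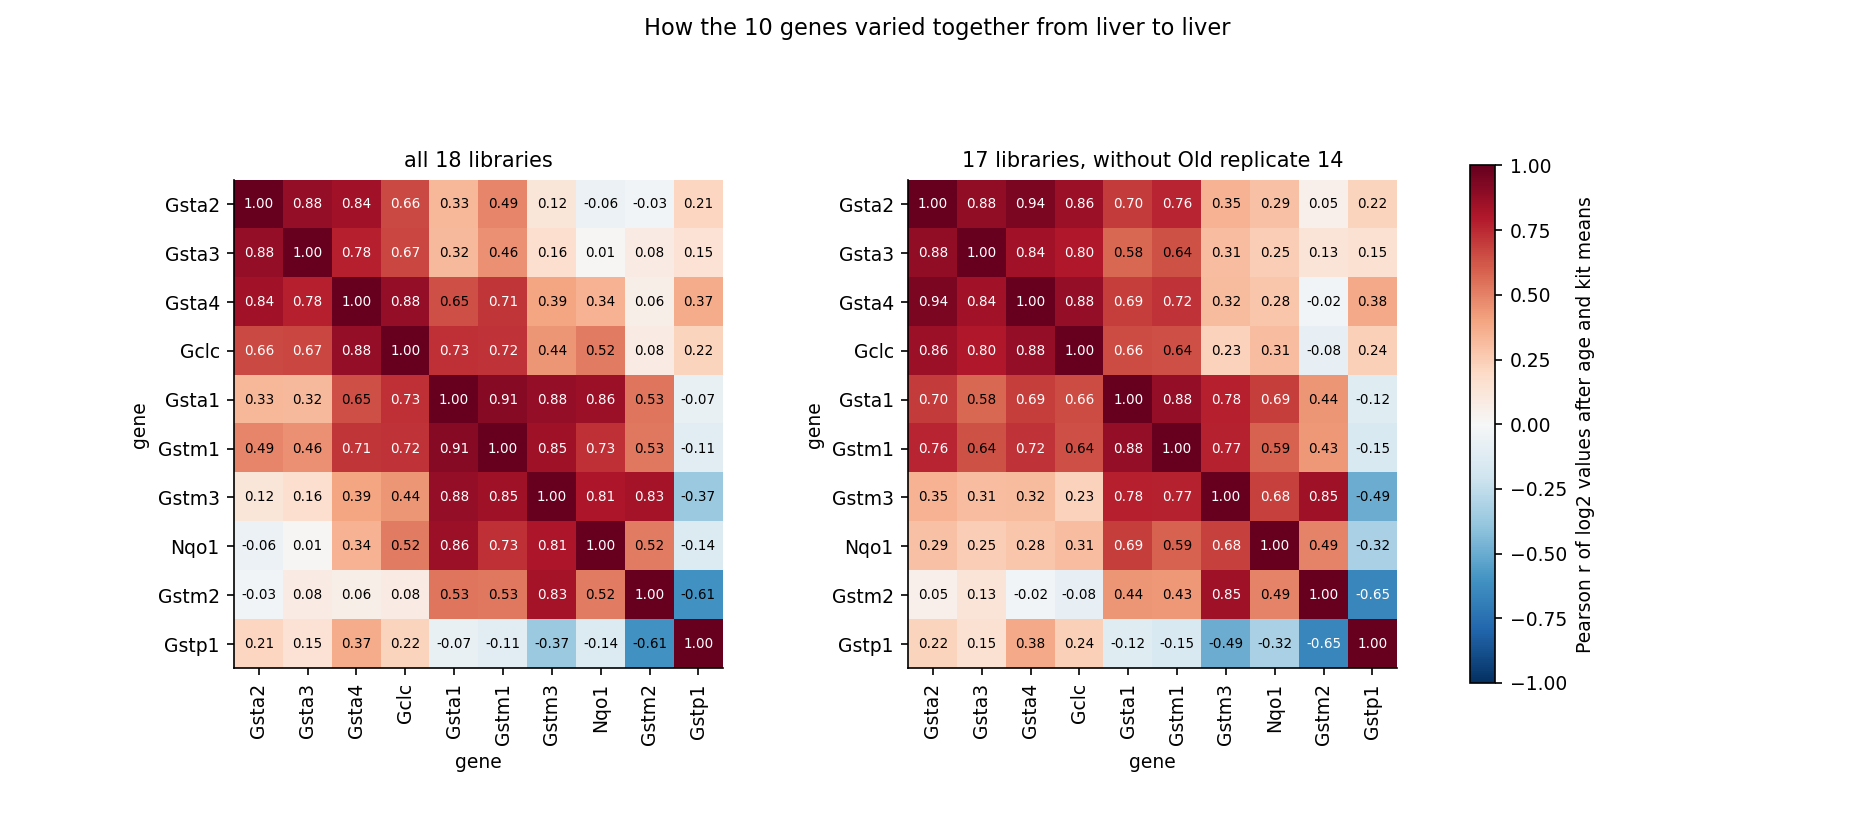
Pearson r between each pair of the 10 genes, of log2 values after removal of age and kit means, in all 18 libraries (left) and in 17 libraries without Old replicate 14 (right). Gsta2, Gsta3, Gsta4 and Gclc form a block in both panels, from 0.66 to 0.88 on the left and from 0.80 to 0.94 on the right, and Gstp1 is negative with Gstm2 in both.

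Over all tested genes and 18 libraries, the genes most like each of 4 members were listed. Gstp1 was most like Gstp-ps (r = 0.97), Azgp1 (0.86) and Tmed1 (0.83). Gstp-ps is the Gstp1 pseudogene that shares sequence with it, at 1.66 ± 0.49 scaled TPM in Old (SD, n = 10) and 3.99 ± 1.31 in Young (SD, n = 8). Gstm1 was most like Gm3776 (0.93), Gsta1 (0.91) and the pentose phosphate enzyme Tkt (0.89). Gsta3 was most like Mme, the endopeptidase neprilysin (0.94), Gm20544 (0.90) and Gsta2 (0.88). Gclc was most like Mpp6 (0.89), Ywhab (0.88) and Gsta4 (0.88). With Old replicate 14 left out, Mgat2 (0.87) stood among the 3 of Gstp1 in place of Tmed1, and Klhl8 (0.88) among those of Gclc in place of Ywhab.

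Promoter windows were held for 8 of the 10 genes, 9 windows in all (RefSeq, GRCm38.p6), and none for Gsta4 and Gclc. Those of Gsta2 and Gsta3, which varied together, are given first, then those of Gsta1, Gstm3 and Nqo1, which were highest in Old replicate 14; capitals mark TGACATTGC, a match to TGACNNNGC, in Gsta3 and TTCAGGGAA, a match to TTCNNNGAA, in Gsta1. They lie at chr9:78347096-78347395 (Gsta2, minus strand), chr1:21240335-21240634 (Gsta3, plus strand), chr9:78230419-78230718 (Gsta1, plus strand), chr3:107969125-107969424 (Gstm3, minus strand) and chr8:107403156-107403455 (Nqo1, minus strand).
Gsta2: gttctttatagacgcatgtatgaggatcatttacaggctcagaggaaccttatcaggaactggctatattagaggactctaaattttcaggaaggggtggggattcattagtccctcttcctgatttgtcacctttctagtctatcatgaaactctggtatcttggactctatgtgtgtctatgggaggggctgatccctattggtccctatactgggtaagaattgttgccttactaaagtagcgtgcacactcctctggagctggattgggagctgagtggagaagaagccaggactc
Gsta3: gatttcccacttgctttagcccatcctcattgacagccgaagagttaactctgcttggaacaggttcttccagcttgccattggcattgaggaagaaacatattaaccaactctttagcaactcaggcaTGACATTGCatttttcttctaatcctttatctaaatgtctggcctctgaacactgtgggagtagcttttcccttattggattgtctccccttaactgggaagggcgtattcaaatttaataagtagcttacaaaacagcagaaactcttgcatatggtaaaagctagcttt
Gsta1: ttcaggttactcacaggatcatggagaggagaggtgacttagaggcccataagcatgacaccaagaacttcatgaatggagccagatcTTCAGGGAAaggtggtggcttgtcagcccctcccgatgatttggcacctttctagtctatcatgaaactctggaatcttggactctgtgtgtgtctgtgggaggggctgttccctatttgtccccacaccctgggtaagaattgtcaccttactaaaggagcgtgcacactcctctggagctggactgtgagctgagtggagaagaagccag
Gstm3: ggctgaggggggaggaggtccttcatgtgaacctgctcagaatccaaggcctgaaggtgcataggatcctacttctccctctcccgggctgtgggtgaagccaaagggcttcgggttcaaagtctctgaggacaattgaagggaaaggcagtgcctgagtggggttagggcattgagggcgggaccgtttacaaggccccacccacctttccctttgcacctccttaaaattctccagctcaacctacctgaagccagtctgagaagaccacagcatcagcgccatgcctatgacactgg
Nqo1: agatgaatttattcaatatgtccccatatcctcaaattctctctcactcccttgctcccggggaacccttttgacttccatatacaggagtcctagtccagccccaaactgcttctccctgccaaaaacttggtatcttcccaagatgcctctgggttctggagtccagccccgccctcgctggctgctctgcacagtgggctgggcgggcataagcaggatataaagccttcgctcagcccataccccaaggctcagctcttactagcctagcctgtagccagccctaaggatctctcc
The antioxidant element core, as the exact letters TGACNNNGC, was found in 1 of the 8 genes, Gsta3, at -121, and in 12.4% of 32851 windows. The STAT letters were found in 1 of 8, Gsta1, at -162, and in 8.3% of windows. GCGTG was found in 4 of 8, Gstp1, Gsta1, Gsta2 and Gstm1, and in 32.4% of windows; both strands were searched for each. Gstm2, Gstm3 and Nqo1 had none of the 4 motifs in the window. These searches cover only the letters in 300 bases around a start.

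The kit term passed for 18.3% of all tested genes and for 0 of the 10 (limma adjusted p from 0.186 to 0.951). With 10 genes nothing is read from that count. Kit and weight partly go together among Old mice, so their parts in this term cannot be told apart. The largest coefficients, AllPrep minus RNeasy, were 0.58 ± 0.56 for Gstm3, 0.40 ± 0.20 for Gstm2 and 0.37 ± 0.20 for Gstm1 on the log2 scale (SE). The coefficient of Gstm3 without Old replicate 14 was 1.00 ± 0.44 and that of Gstm2 0.47 ± 0.19, and Gsta1 had 0.09 ± 0.38, against -0.36 ± 0.55 with all libraries (SE). Gstm1 then passed, with 0.50 ± 0.17 (SE, adjusted p = 0.0432 by limma), where 23.6% of genes did. The age by kit term, which none of the 10 genes passed, was 0.89 ± 0.35 on the log2 scale for Gstm2 (SE, adjusted p = 0.975 by limma) and 1.38 ± 1.12 for Gstm3 (SE, adjusted p = 0.975 by limma). Without Old replicate 14 it was 1.08 ± 0.30 for Gstm2 (SE, adjusted p = 0.379 by limma) and 2.23 ± 0.71 for Gstm3 (SE, adjusted p = 0.455 by limma). Gsta1 then had 1.55 ± 0.69, against 0.67 ± 1.13 with all libraries, and Nqo1 0.62 ± 0.21, against 0.02 ± 0.66 (SE).

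Traits of the same mice gave a test that the choice of genes had not used. Slopes were fitted on each trait centred within age, with age and kit as terms. Over 4 traits and 10 genes, 40 slopes, 0 passed. On the suppression of glucose production by insulin, 0.0% of all genes passed, with 1267 at an unadjusted p under 0.05, and the lowest limma adjusted p of the 10 was 0.581 (Gstm2). On liver glycogen and on liver citrate synthase 0.0% of genes passed, with 412 and 444 at an unadjusted p under 0.05, and no member had an adjusted p under 0.925. On clamp weight 10 genes, 0.072%, passed. There Gstm3 had a slope of 1.40 ± 0.60 on the log2 scale per 10 g (SE, adjusted p = 0.265 by limma) and Gstm2 one of 0.49 ± 0.21 (SE, adjusted p = 0.265 by limma).

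Gstm3 followed clamp weight more closely once Old replicate 14 was left out. Its slope was then 1.75 ± 0.30 per 10 g (SE, adjusted p = 0.0186 by limma), and it was the 1 of the 10 genes that passed, where 1.2% of all genes did. The library left out held the highest Gstm3 value, so this p-value rests on a choice tied to Gstm3 itself. Leaving out each library in turn gave slopes of 1.07 to 1.75 and adjusted p-values of 0.0186 to 0.706, and the call was made in that 1 case. Among the other Old livers, Old replicates 6 and 17, at 35.1 and 35.4 g, had 7.97 and 9.18 scaled TPM, and Old replicate 7, at 55.0 g, had 116. Old replicate 14 weighed 37.8 g and had 341. Slopes within subsets, added after seeing the data, were 1.05 ± 0.32 in AllPrep and 1.66 ± 1.35 in RNeasy libraries, and 1.26 ± 0.97 in Old and 1.37 ± 0.42 in Young mice (SE). None of these passed (limma adjusted p from 0.203 to 1.0), and all were positive.

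The labels also hold a weight on leaving a metabolic cage, for 14 of the mice, and it can differ widely from clamp weight. Old replicate 6, with the lowest Gstm3 value, had 35.1 g at the clamp and 48.6 g on leaving the cage. Old replicate 9 had 46.7 g and 34.2 g. On cage weight the Gstm3 slope was -0.33 ± 0.65 per 10 g (SE, adjusted p = 1.0 by limma), or -0.14 ± 0.52 without Old replicate 14 (SE, adjusted p = 0.98 by limma). In the same 14 mice the slope on clamp weight was 1.08 ± 0.64 (SE, adjusted p = 0.467 by limma). The slope was thus positive with clamp weight and negative, within its error of 0, with cage weight.

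**Figure D5:**
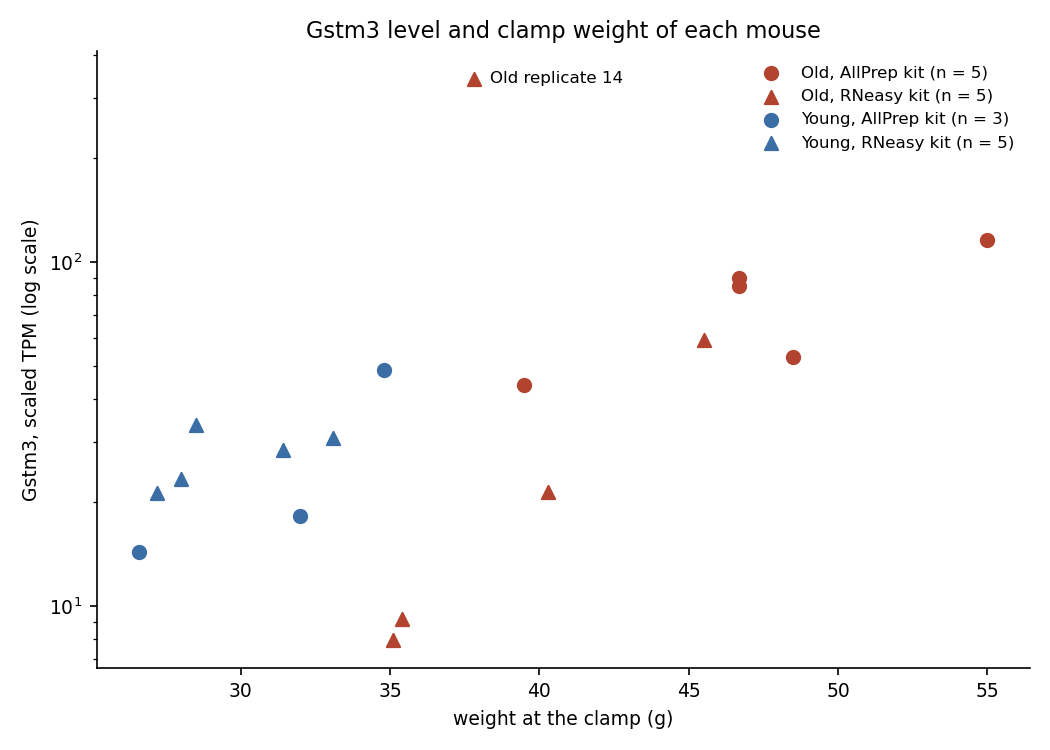
Gstm3 in scaled TPM (log axis) against weight at the clamp in g, with a point for each mouse, coloured by age, with circles for AllPrep and triangles for RNeasy libraries. Old mice run from 7.97 at 35.1 g to 116 at 55.0 g, but not steadily, with 59.3 at 45.5 g and 52.9 at 48.5 g. Old replicate 14 stands apart, with 341 at 37.8 g, and Young mice lie between 14.3 and 48.6.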

How the data were processed

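Liver RNA-seq of 18 mice was deposited by the authors as TPM, a unit that already sums to 1000000 in each library. The submitters' processing notes name STAR 2.7.9a, Subread, featureCounts, GRCm39 and mm10 with no role for either build. Whole reads could be recovered from the deposited TPM for all 18946 genes (within 1e-06 of a whole read), and no column was left unmapped. Strandedness of the counting is not given in the sources used here; overlapping and near-identical genes are therefore uncertain.

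TPM were scaled between libraries by trimmed log ratios (30% of ratios and 5% of levels trimmed). The 13895 genes that reached 0.5 TPM in 8 or more libraries were tested on log2(scaled TPM + 0.5), which understates the change of low genes, with limma 3.58.1 in R 4.3.3. Age and kit were terms, and a Benjamini-Hochberg adjusted p under 0.05 over all tested genes was a call. The count test named in the design was replaced by limma because the values are TPM. Limma-voom on the recovered reads was added later as an alternative. The age fit was tested on data simulated with known changes and 1 spread for all genes, and a trait slope on the same data. It called 3 of 50 genes changed 1.25-fold, 28 of 50 changed 1.5-fold and 50 of 50 changed 2-fold. Of 13816 unchanged genes it called 5. Small changes were thus often missed, and a gene without a call may still differ. The kit and age by kit terms were not simulated. Kit, age by kit and trait slopes were read from limma fits of the same kind. Reads gave 85790735 to 127487820 per library, so depth limits only the lowest genes; floors cover counting error alone.

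The 10 genes and all lists were chosen with earlier results of these data known. Named genes were the 10, from each other list the called genes with the smallest p up to 6, Gclm, Gss, Gsr, Gpx1, Gstt1, Mgst1, Nfe2l2, Keap1, Gstp2 and Gstp3 whatever their result, and 3 genes most like each of Gstp1, Gstm1, Gsta3 and Gclc. Other genes, as in Old replicate 14, were chosen after their values were seen. No pair of libraries of 1 age agreed within sampling noise (lowest chi-square per degree of freedom 79.1 in Old and 39.8 in Young). Coding sequences came from GENCODE M21 (GRCm38), and loci and promoters from RefSeq (GRCm38.p6). Neither build is tied to the deposited values. Alternatives were the scaling, the filter, a pseudocount of 0.1 or 1, the kit term, library weights, each kit alone and leaving out each library.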

Additional observations from a re-analysis of the deposited data

Results flagged for a closer look

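Of 68 groups checked (34 genes in each age), 16 held a sample far from the others of its age. The cut-off is meant to flag about 1 in 20 groups of unrelated, normally distributed values. These groups share the same livers and hold TPM without logs, so the 16 are not compared with that rate. Old replicate 14 accounts for 8 of the 16. In that liver Gsta1 had 35.5 scaled TPM, against 0.0814 to 4.93 in the other Old livers, Gstm3 had 341 against 7.97 to 116, and Nqo1 had 32.5 against 2.99 to 6.01. Cyp2b9 had 258 scaled TPM there against 1.11 to 118, Sult1e1 had 4.01 against 0.184 to 1.16, and Gstp3 had 32.6 against 10.4 to 17.6. Below the others of its age lay Glrx, with 33.8 scaled TPM against 43.1 to 51.3, and Mgst1, with 1355 against 2843 to 4085.

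Young replicate 13 stood above the other Young livers for Gstm7, with 48.1 scaled TPM against 28.5 to 37.8, for Gsr, with 108 against 87.3 to 97.0, for Nfe2l2, with 49.0 against 31.3 to 39.4, and for Keap1, with 28.9 against 23.9 to 25.9. Young replicate 1 had 4433 scaled TPM of Gpx1, against 2259 to 3238 in the other Young livers, and 5298 of Mgst1, against 3452 to 3968. Young replicate 10 had 546 scaled TPM of Por, against 375 to 425. Old replicate 15 had 74.9 scaled TPM of Gstp2, against 2.08 to 35.3 in the other Old livers.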

How the results depend on the processing

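No paired analysis was possible because no replicate number occurs in both ages. Gstp1 stayed lower in Old in all 29 alternatives, from -1.95 to -0.82 on the log2 scale. The number of the 10 genes called lower, 1 with all libraries, was 0 in RNeasy libraries alone and 0 there without Old replicate 14, and 1 to 1 when each library was left out. Genes called higher, 339 with all libraries, numbered 98 in AllPrep and 7 in RNeasy libraries alone, 35 in RNeasy without Old replicate 14, 704 with library weights, and 176 to 510 when each library was left out. Genes called lower, 343 with all libraries, numbered 55, 7, 29 and 697 in the same settings, 188 with no further scaling, and 184 to 466 with each library left out. The lowest counts came without Young replicate 10, and 510 and 466 without Old replicate 14. Without Old replicates 9 and 15 and Young replicates 1, 2 and 11 both directions moved by over 1.5 times, and without Old replicate 7 and Young replicates 4 and 12 the lower one did.

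Other glutathione genes called higher, 8 with all libraries, numbered 5 in AllPrep alone, 1 in RNeasy alone with or without Old replicate 14, 5 with no kit term, and 4 to 12 with each library left out. Those called lower, 8 with all libraries, numbered 2 in AllPrep alone, 0 in RNeasy alone with or without Old replicate 14, 5 with no further scaling, and 6 to 9 with each library left out. Fewer libraries enter each kit's fit; otherwise the cause was not tested. The kit called 0 to 1 of the 10 genes with each library left out (1, Gstm1, without Old replicate 14). Slopes on clamp weight called 1 of the 10 with no kit term and 0 to 1 with each library left out. The Gstm3 slope reversed on cage weight, to -0.33 and, without Old replicate 14, to -0.14, with the cause not tested. No scaling moved the median log2 fold of all genes from 0.00 to 0.05.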

Other observations

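Among male-biased genes that fell, Cyp7b1, an oxysterol hydroxylase, had 132 ± 72.9 scaled TPM in Old (SD, n = 10) and 364 ± 122 in Young (SD, n = 8), a log2 fold of -1.68 ± 0.38 (SE, adjusted p = 0.0199 by limma). The fatty acid hydroxylase Cyp4a12b reached 1.38 to 65.5 scaled TPM in Old and 85.5 to 121 in Young livers, without overlap (log2 fold -2.02 ± 0.53 SE, adjusted p = 0.0366 by limma). Ugt2b38 (-2.52), Selenbp2 (-2.23), Cspg5 (-1.03) and Nudt7 (-0.92) fell as well on the log2 scale. Among female-biased genes that rose, the sulfotransferase Sult2a7 had 4.42 to 56.7 scaled TPM in Old and 1.73 to 4.09 in Young livers, without overlap (log2 fold 1.84 ± 0.33 SE, adjusted p = 0.00615 by limma). Cyp2a22 (1.43), Slc22a26 (1.43), Slc22a27 (1.22) and Abcd2 (1.09) rose too on the log2 scale.

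Few markers of cell types or zones passed. Pck1, the gluconeogenic enzyme of periportal hepatocytes, fell to 1039 to 4188 scaled TPM in Old livers, against 4523 to 6658 in Young livers, without overlap (log2 fold -0.99 ± 0.21 SE, adjusted p = 0.0137 by limma). Aldh1b1 of the same list rose by 1.38 and pericentral Notum fell by 0.48 on the log2 scale. Pericentral genes that fell numbered 3 without Old replicate 14 and 1 with all libraries. The macrophage receptor Trem2 rose by 1.24 and the plasma cell joining chain Jchain by 1.44 on the log2 scale, each 1 call in its list (12 and 10 genes tested).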
